A study of Mus musculus with 10 samples.

Results

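Nanog, Pou5f1, Sall4, Klf4, Tdgf1, Dppa4, Prdm14 and Utf1, 8 genes of the pluripotent state of the early embryo, were followed at their transcription start sites (TSS) in the developing mouse retina. They were found by symbol alone and made up 8 of the 20044 gene symbols (11 of 25152 entries) in the occupancy table. Sall4 had 3 entries and Dppa4 had 2, each set with identical values, and each gene was counted once. Chromatin immunoprecipitation followed by sequencing (ChIP-Seq) gave the occupancy of dimethylated lysine 4 of histone H3 (H3K4me2) and trimethylated lysine 27 of histone H3 (H3K27me3) in retina before birth (E17.5) and on 3 postnatal days (PN1, PN7, PN15). Each mark had 1 library at each of the 4 stages, 8 libraries in all, each from pooled retinas and so from a mixture of retinal cell types. All groups carried the strain label Pde6b (rd1/rd1), a mutant in which rods degenerate, whereas the study describes wild type (C57BL/6j) retinas for the developmental series and rd1/rd1 retinas for a separate comparison. The embryonic stage was E17 in the sample labels and E17.5 in the protocol.

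The pluripotent state rests on a small set of transcription factors that keep one another active and that are silenced as cells enter the embryonic lineages. Trimethylation of lysine 27 is laid down by Polycomb repressive complex 2, mainly at silent developmental genes and often over CpG-rich DNA. Dimethylation of lysine 4 marks promoters and enhancers that are active or held ready for activity, and promoters that carry both marks are called bivalent. Silent genes may also carry neither mark. RNA was not measured in these libraries, so whether each of the pluripotency genes is silent in retina was not tested.

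Values are normalized occupancies, that is, reads within 2.5 kb of a TSS scaled to the mapped reads of the library and rounded by the authors to whole numbers. The sums over all entries ran from 698257 to 1200594 for H3K4me2 and from 590366 to 980808 for H3K27me3. The lowest whole number missing from a library was 110 or higher, so that 1 read stood for no more than about 1 unit, and each value taken as a read number gave the widest exact Poisson 95% interval. Those intervals, and the exact intervals of ratios between stages, cover counting error only. With 1 library for each mark and stage there was neither replicate error nor a test between animals, and no p-value is given. The background of each library was the 99th percentile of 1403 entries of olfactory and vomeronasal receptors, genes not used in retina, and stood at 6, 9, 1 and 9 for H3K4me2 and at 32, 39.0, 39.0 and 39 for H3K27me3, in order of stage, the order used for every run of 4 values here. The low H3K4me2 background at PN7 belonged to a library with 19.5% of all entries at 0. Among 10 retinal marker genes, 9 had H3K4me2 above background in all 4 libraries (65.3% of all genes), and at the photoreceptor genes Crx and Gnat1 it increased from 20 and 11 at E17.5 to 158 and 105 at PN15. Of 12 markers of other cells, 1 (Myod1) was above background for H3K4me2 in all 4 libraries and 7 in none (24.4% of all genes), and their summed H3K4me2 was 74, 86, 25 and 52 at the 4 stages.

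The 8 genes lie on different chromosomes of the mm9 genome. Nanog is at chr6:122657507-122664651 on the plus strand, Pou5f1 at chr17:35642982-35647721 on the plus strand, Dppa4 at chr16:48283848-48294405 on the plus strand and Utf1 at chr7:147129688-147131011 on the plus strand. Sall4 is at chr2:168573832-168593443, Klf4 at chr4:55540013-55545347, Tdgf1 at chr9:110842114-110848662 and Prdm14 at chr1:13103538-13117244, all on the minus strand. The 5 kb windows around the annotated TSS held between 107 bases (Dppa4) and 1735 bases (Klf4) of their own exons, and that of Utf1 ran past the end of the gene. No other gene overlapped these windows except Kndc1 in the window of Utf1.

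RefSeq promoters of 300 bases (250 upstream and 50 downstream of the TSS, GRCm38.p6) were at hand for 5 of the 8 genes and each matched 1 place in mm9. They are shown because the genes ran from CpG-rich to CpG-poor, a property that the choice of genes did not use, and the CpG dinucleotides are in capitals. The Klf4 promoter (chr4:55545298-55545597, minus strand) held 40 CpG, more than 96.1% of the 32851 promoters in the table, whose median was 7. The Utf1 promoter (chr7:147129505-147129804, plus strand) held 17, Pou5f1 (chr17:35642727-35643026, plus strand) 11, Tdgf1 (chr9:110848613-110848912, minus strand) 7 and Nanog (chr6:122657333-122657632, plus strand) 4. Pou5f1 and Nanog each had 2 promoters in the table, with 6 CpG in the other of Pou5f1 and 4 in the other of Nanog, and the 1 nearest to the annotated TSS is shown.
Klf4: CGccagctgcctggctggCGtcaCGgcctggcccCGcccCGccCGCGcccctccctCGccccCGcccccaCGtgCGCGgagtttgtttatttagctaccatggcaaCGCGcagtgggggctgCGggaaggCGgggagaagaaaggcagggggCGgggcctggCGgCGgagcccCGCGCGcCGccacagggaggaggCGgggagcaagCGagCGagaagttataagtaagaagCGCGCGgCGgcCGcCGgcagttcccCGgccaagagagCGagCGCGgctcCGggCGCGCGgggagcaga
Utf1: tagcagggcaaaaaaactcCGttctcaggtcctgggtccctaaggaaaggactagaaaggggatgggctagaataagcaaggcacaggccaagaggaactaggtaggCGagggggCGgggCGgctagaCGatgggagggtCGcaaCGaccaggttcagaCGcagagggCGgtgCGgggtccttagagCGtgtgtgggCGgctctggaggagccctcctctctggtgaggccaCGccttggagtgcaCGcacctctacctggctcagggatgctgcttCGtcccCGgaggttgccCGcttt
Pou5f1: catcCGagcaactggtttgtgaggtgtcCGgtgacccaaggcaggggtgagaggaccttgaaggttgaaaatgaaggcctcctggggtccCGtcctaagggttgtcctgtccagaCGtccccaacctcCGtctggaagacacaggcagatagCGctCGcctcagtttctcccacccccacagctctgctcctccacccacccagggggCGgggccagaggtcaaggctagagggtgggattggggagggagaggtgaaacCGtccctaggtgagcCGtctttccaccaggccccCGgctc
Tdgf1: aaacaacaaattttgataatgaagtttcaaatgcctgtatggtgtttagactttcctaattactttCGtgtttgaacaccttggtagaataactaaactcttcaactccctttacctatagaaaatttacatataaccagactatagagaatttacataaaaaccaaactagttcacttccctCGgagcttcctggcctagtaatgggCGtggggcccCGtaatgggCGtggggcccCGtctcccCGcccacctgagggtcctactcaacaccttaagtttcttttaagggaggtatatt
Nanog: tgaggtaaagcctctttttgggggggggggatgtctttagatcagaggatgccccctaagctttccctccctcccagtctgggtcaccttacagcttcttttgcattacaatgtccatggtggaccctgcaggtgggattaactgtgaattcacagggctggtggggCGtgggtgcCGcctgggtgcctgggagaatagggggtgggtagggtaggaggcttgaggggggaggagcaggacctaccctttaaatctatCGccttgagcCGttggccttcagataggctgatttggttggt

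H3K27me3 stood above background at all 4 stages in 7 of the 8 genes, against 11.4% of all genes. Dppa4 was above background at no stage, the state of 79% of all genes. The 7 genes covered a wide range. Prdm14, Utf1 and Sall4 reached 559, 578 and 532 at PN1, Tdgf1, Klf4 and Pou5f1 reached 200, 142 and 116 at their highest stage, and Nanog reached 63. Summed over the 4 stages, Prdm14 exceeded 99.2% of all genes, Sall4 98.8%, Utf1 98.8%, Tdgf1 94.9%, Klf4 92.5%, Pou5f1 91.9% and Nanog 87.5%, whereas Dppa4 exceeded 15.6%. Retina was studied whole, so a level shared by all cells cannot be told apart from a higher level in part of the cells.

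H3K4me2 divided the same genes differently. It was above background at all 4 stages in 3 genes (Klf4, Sall4 and Utf1), against 65.3% of all genes, and at no stage in Nanog and Dppa4, against 24.4%. Prdm14 was above background at 3 stages, and Pou5f1 and Tdgf1 each at E17.5 and PN7. The median of the 8 genes was 17, 11.5, 10 and 8.5 over the 4 stages, where the medians over all entries were 42, 28, 24 and 43. Klf4 was the exception among them, with a summed H3K4me2 above that of 98.5% of all genes, while the other members lay between the 10.8% of Nanog and the 50.7% of Sall4.

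**Figure D1:**
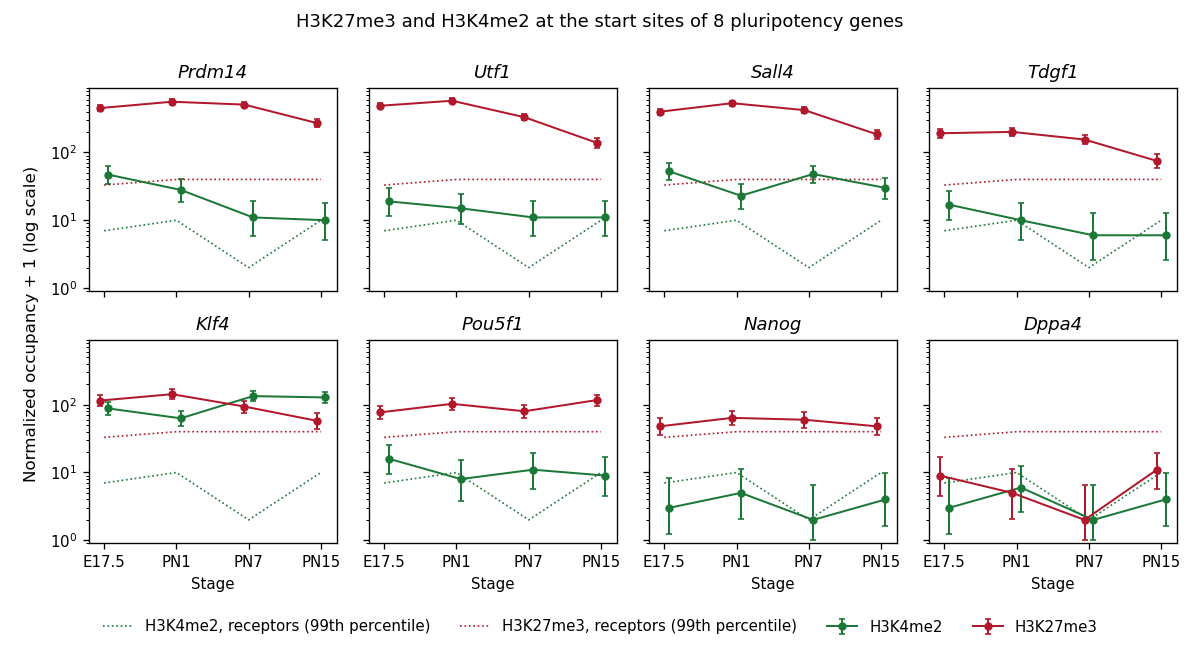
Normalized occupancy plus 1 (log scale) of H3K27me3 (red) and H3K4me2 (green) at the TSS of each gene over the 4 stages. Bars are exact Poisson 95% intervals, and dotted lines are the 99th percentile of the olfactory and vomeronasal receptor entries in each library. H3K27me3 lies above its dotted line at all 4 stages in every panel but Dppa4.

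Prdm14, a PR-domain protein of the germ line and of naive pluripotent cells, had the highest summed H3K27me3 of the 8. Its H3K27me3 was 450, 559, 507 and 271, highest at PN1. The PN15 value was 0.602 of that at E17.5 (95% interval 0.516 to 0.702). Of the genes with at least 300 at PN1, 91.9% had a lower log2 change than Prdm14, and its rank among all genes went from 217 to 69. H3K4me2 at Prdm14 was 46, 27, 10 and 9, a decrease to 0.196 of the E17.5 level (95% interval 0.0842 to 0.405). The gene carried both marks above background at E17.5, PN1 and PN7 and H3K27me3 alone at PN15, where 3.05% of all genes had H3K27me3 alone. Its H3K4me2 at PN15 equalled the background of 9, and with the 95th percentile of the receptors (7 at PN15) it was above background at all 4 stages.

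Utf1, a chromatin-bound factor of pluripotent cells, had H3K27me3 of 487, 578, 330 and 138. The PN15 value was 0.283 of that at E17.5 (95% interval 0.233 to 0.343), the steepest decrease of the 8 genes. Its rank in H3K27me3 went from 170 to 482. H3K4me2 at Utf1 was 18, 14, 10 and 10, above background at each stage but by 1 unit at PN15.

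Sall4, a zinc finger factor that acts with Pou5f1 and Nanog, had H3K27me3 of 398, 532, 420 and 184. The PN15 value was 0.462 of that at E17.5 (95% interval 0.386 to 0.552). H3K4me2 at Sall4 was 52, 22, 47 and 29, always above background, and the gene carried both marks in all 8 libraries, as did 8.46% of all genes. The other Sall genes in the table did the same. Sall1 had H3K27me3 of 258, 420, 402 and 213, Sall3 had 320, 457, 412 and 182, and Sall2 had 33, 50, 77 and 46, the lowest of the family.

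Tdgf1 (also called Cripto), a membrane-bound co-receptor for Nodal, had H3K27me3 of 191, 200, 154 and 74. The PN15 value was 0.387 of that at E17.5 (95% interval 0.292 to 0.509). H3K4me2 at Tdgf1 was 16, 9, 5 and 5, at or below background at PN1 and PN15. Its relative Cfc1, the other EGF-CFC co-receptor, had H3K27me3 of 305, 307, 212 and 138 beside H3K4me2 of 7, 5, 2 and 8. At both genes H3K27me3 was lowest at PN15 and H3K4me2 was above background at 2 stages, E17.5 and PN7. At Cfc1 these calls were narrow, with 7 and 2 over backgrounds of 6 and 1, whereas 8 at PN15 lay below 9. At Tdgf1 the value 5 was above the background of 1 at PN7 and below that of 9 at PN15.

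Klf4 is a Krüppel-like factor that is also used in many differentiated tissues. Of the 8 genes, only Klf4 had a summed H3K4me2 score as large as its summed H3K27me3 score (409 beside 406). Scores of the 2 marks come from different antibodies and do not share a unit. Background stood at 1 to 9 for H3K4me2 and at 32 to 39 for H3K27me3. By fold over background other members also had more H3K4me2 at some stages, such as Sall4 at PN7 (47 beside 10.8). Klf4 had 14.5 beside 3.56 at E17.5. Its H3K4me2 was 87, 62, 133 and 127, and the PN15 value was 1.46 times that at E17.5 (95% interval 1.10 to 1.94). Its H3K27me3 was 114, 142, 93 and 57, and the PN15 value was 0.50 of that at E17.5 (95% interval 0.357 to 0.693). The ratio of the H3K27me3 score to the H3K4me2 score was 1.31 at E17.5 and 0.449 at PN15. That decrease depended on the scaling, since with the libraries of each mark scaled to the same 99th percentile the log2 changes were 0.15 for H3K27me3 and 0.10 for H3K4me2. Of the 2282 genes with H3K27me3 above background at all 4 stages, 2.8% had a summed H3K4me2 as large as their summed H3K27me3, and Klf4 was one of these. Of 16 other Klf genes, 3 (Klf2, Klf5 and Klf14) had H3K27me3 above background at all 4 stages (11.4% of all genes) and 14 had H3K4me2 at all 4 (65.3%). Klf2 and Klf5, which also serve in pluripotent cells, had H3K27me3 of 196, 312, 188 and 79 and of 102, 111, 109 and 60.

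Pou5f1 (Oct4), the POU factor at the centre of the pluripotency network, had H3K27me3 of 76, 102, 79 and 116. Of the 7 marked genes it was the only one whose H3K27me3 was highest at PN15, at 1.53 times the E17.5 value (95% interval 1.13 to 2.07), and its rank went from 1931 to 709. H3K4me2 at Pou5f1 was 15, 7, 10 and 8. The nearest annotated TSS were those of Tcf19 (10787 bases away) and Cchcr1 (11139 bases away), which lie close to each other and share most of their windows. H3K27me3 at Tcf19 was 12, 11, 15 and 64 and at Cchcr1 12, 11, 15 and 61, and H3K4me2 at Tcf19 was 108, 72, 65 and 45. The increase of H3K27me3 between PN7 and PN15 was therefore also seen in windows next to Pou5f1 that do not overlap its own. No gene lay within a distance of 1 of Pou5f1 over the 8 libraries on the log2(value + 1) scale, and the nearest were 1700001C02Rik (distance 1.16) and Pgm5 (distance 1.19).

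Nanog, a homeobox factor of the same network, had the lowest H3K27me3 of the 7 marked genes, at 47, 63, 59 and 47. Its values were between 1.21 and 1.62 times the background, and the lower end of the counting interval at PN15 was 34.5, below the background of 39. The PN15 to E17.5 ratio was 1 (95% interval 0.653 to 1.53). H3K4me2 at Nanog was 2, 4, 1 and 3, never above background. H3K27me3 at every stage with H3K4me2 at none was rare, with 103 genes (0.514% of all), and Nanog was one of them. The entry for the pseudogene Nanogpd differed from Nanog by at most 1 unit in each library. Where its window lies was not found in the annotation used, so it is uncertain whether both entries count the same reads, and the unique share of the Nanog window (88.8% of its 31-base words) was below that of Pou5f1 (98.4%). The nearest annotated TSS with an entry, that of Slc2a3 (35177 bases away), had H3K27me3 of 134, 136, 98 and 51 beside H3K4me2 of 56, 41, 24 and 37.

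Dppa4, a DNA-binding protein of pluripotent cells and the early germ line, had H3K27me3 of 8, 4, 1 and 10 beside H3K4me2 of 2, 5, 1 and 3. None of the 8 values was above background, the state of 22.9% of all genes, and H3K4me2 at PN7 stood at the background of 1. H3K27me3 at Dppa4 was between 0.0257 and 0.256 of the background level, and its highest upper interval end (18.4 at PN15) lay below the lowest lower end of Nanog (34.5). Dppa2, its partner protein and neighbour (26742 bases away), had H3K27me3 of 9, 4, 4 and 9 beside H3K4me2 of 3, 5, 0 and 1. The Dppa4 window was also the least unique of the 8, with 81.5% of its 31-base words found once in the genome; the part of read mapping in its low values was not tested.

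**Figure D2:**
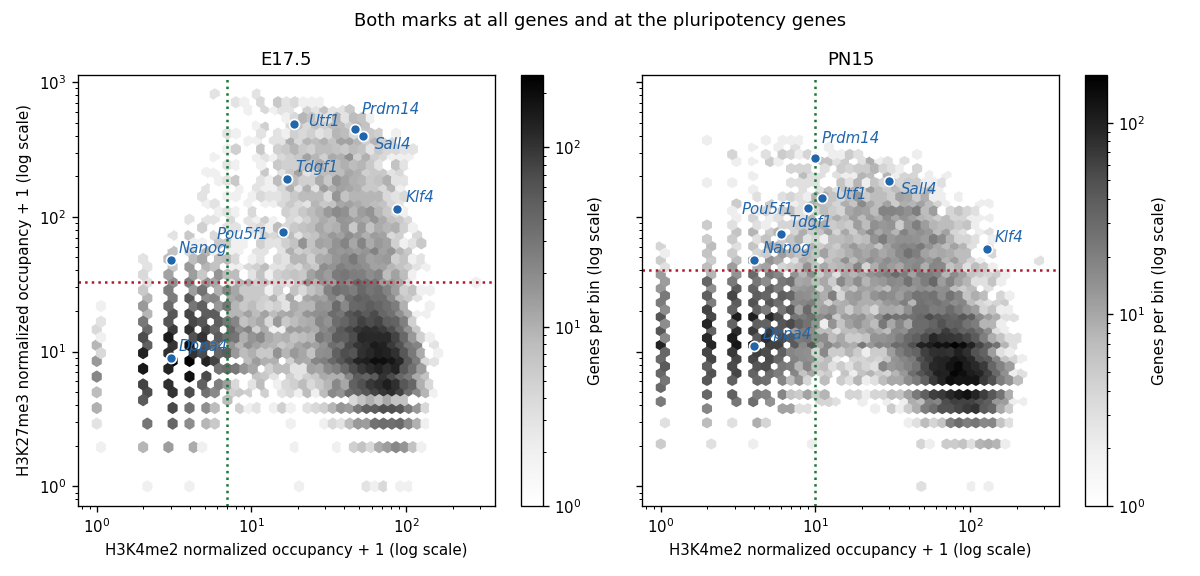
H3K4me2 (x axis) and H3K27me3 (y axis) normalized occupancy plus 1, both on log scales, at E17.5 and PN15. Grey bins hold all 20044 genes, blue points are the 8 pluripotency genes, and dotted lines are the background of each mark. Klf4 keeps both marks, Nanog lies above the H3K27me3 line and left of the H3K4me2 line, and Dppa4 lies below both.

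Nanog and Dppa4 form a direct contrast, as neither carried H3K4me2. Of the 4882 genes with H3K4me2 above background at no stage, 2.11% had H3K27me3 at all 4 stages, as Nanog did, and 94% had it at none, as Dppa4 did. The contrast rests on the receptor background: against the 99th percentile of defensin, keratin-associated and taste receptor entries (65.6 to 71.1) Nanog too had H3K27me3 at no stage, and by the lower end of its counting interval it was above the receptors at 3 stages. Both windows were poor in CpG. The 5 kb window of Nanog held 78 CpG and that of Dppa4 64, more than 34.9% and 27.6% of genes, and neither held island-like sequence (500-base windows with at least 55% GC and an observed to expected CpG ratio of at least 0.75). Genes without island-like sequence and without H3K4me2 had H3K27me3 at all 4 stages in 2.07% of cases. The genes with H3K27me3 at all stages and H3K4me2 at none that could be placed on the annotation (98) had a median of 54 CpG, and those with neither mark (4302) a median of 32. The part of CpG content in the difference between Nanog and Dppa4 was not tested.

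The other members with H3K27me3 held more CpG than Nanog and Dppa4, but Pou5f1 was not richer for its base content. Its observed to expected CpG ratio over 5 kb was 0.246, beside 0.284 for Nanog and 0.252 for Dppa4. Klf4 held 315 CpG in its 5 kb window, Sall4 202, Utf1 177, Prdm14 164, Tdgf1 125 and Pou5f1 88, where the median of the 19224 annotated genes was 103 and that of genes with H3K27me3 at all 4 stages was 135. Island-like sequence covered 2950 bases of the Klf4 window, 1720 of Sall4, 1680 of Utf1 and 760 of Prdm14, and was absent from Tdgf1, Pou5f1, Nanog and Dppa4. It was present in 67.2% of genes with H3K27me3 at all 4 stages, in 52.0% of genes with it at none, and in 1.86% of genes with neither mark. The 3 genes with the most H3K27me3 held between 164 and 202 CpG, and Klf4, with the most CpG, had a summed H3K27me3 of 406 beside 1533 to 1787 in those 3, and the highest H3K4me2.

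**Figure D3:**
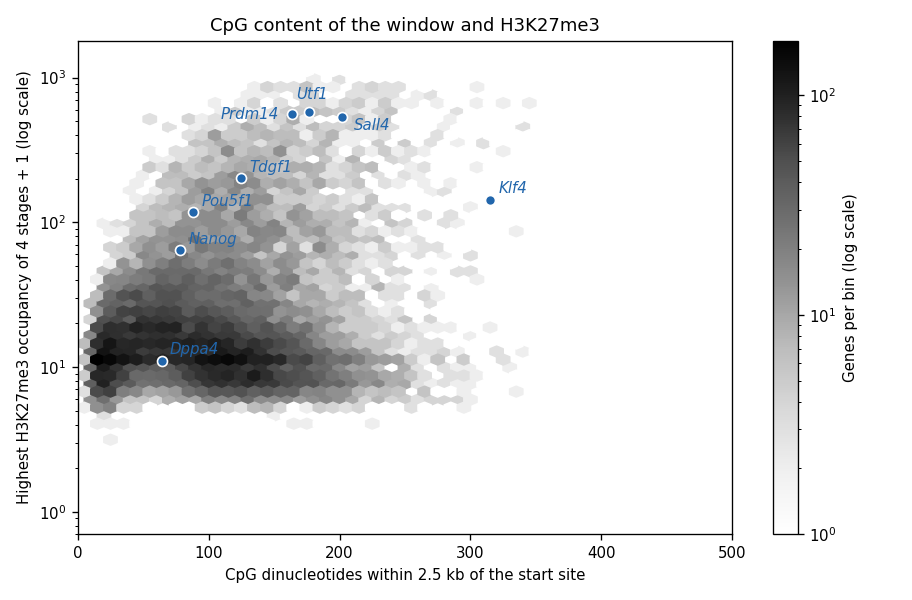
Number of CpG dinucleotides within 2.5 kb of the TSS (x axis) and the highest H3K27me3 occupancy of the 4 stages plus 1 (y axis, log scale). Grey bins hold the annotated genes and blue points are the 8 pluripotency genes. Nanog (78 CpG) reaches 63 and Dppa4 (64 CpG) reaches 10.

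The course of H3K27me3 was next set beside that of all marked genes. From E17.5 to PN15 it decreased at least 2-fold, with 1 added to each value, in 3 of the 8 genes (Sall4, Tdgf1 and Utf1), all 3 marked. The share past this 2-fold limit was 16.1% of all genes and 43% of the 3359 genes above background at PN1. Klf4, with a ratio of 0.50 before the addition, fell just short of that limit at a log2 change of -0.99. The log2 changes were -1.81 for Utf1, -1.36 for Tdgf1, -1.11 for Sall4, -0.73 for Prdm14, 0.00 for Nanog and 0.60 for Pou5f1, beside a median of -0.85 for the 3359 genes (quartiles -1.32 and -0.26). Among the 669 genes with at least 300 at PN1 the median was -1.26 (quartiles -1.49 and -1.03), so that Sall4 lay within the quartiles, Utf1 below them and Prdm14 above them. Pou5f1 was among the 16.9% of genes above background at PN1 that had more H3K27me3 at PN15 than at E17.5. The highest stage was PN1 in 6 of the 7 marked members and in 65.4% of the 2282 genes with H3K27me3 above background at all 4 stages.

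These changes depended on how the H3K27me3 libraries are scaled. The 99th percentile of H3K27me3 over all entries was 449, 559, 395 and 202 at the 4 stages while the median stayed between 9 and 10. When the libraries were scaled to the same 99th percentile, the median of all genes moved up by 1.07 on the log2 scale. None of the 8 genes then decreased 2-fold, against 1.71% of all genes, and PN1 was the highest stage in 0 of the 7 marked genes. Sall4, Klf4 and Prdm14 then had log2 changes of 0.04, 0.15 and 0.42, Nanog and Pou5f1 of 1.13 and 1.75, and Tdgf1 and Utf1 of -0.22 and -0.67.

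**Figure D4:**
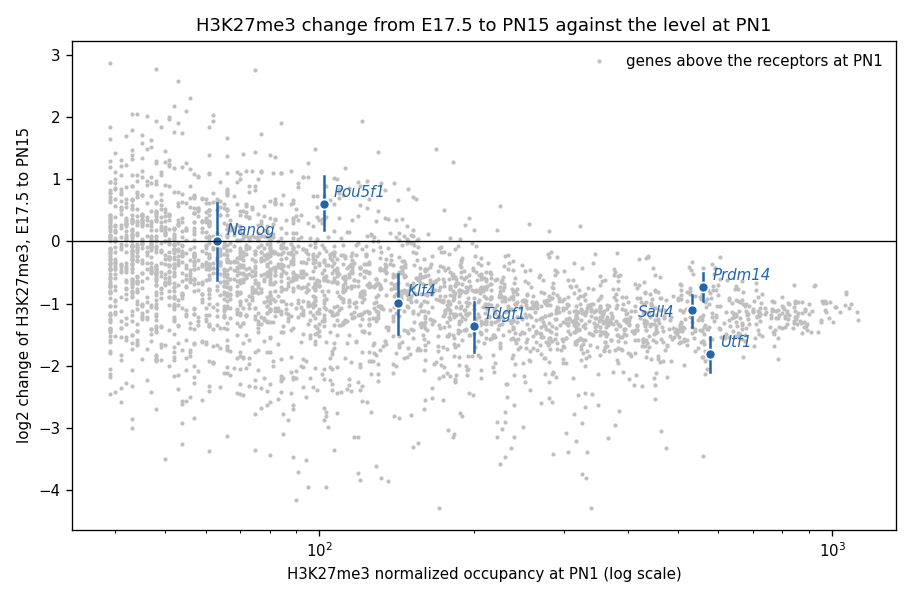
Log2 change of H3K27me3 from E17.5 to PN15 (y axis) against H3K27me3 occupancy at PN1 (x axis, log scale) for the 3359 genes above background at PN1 (grey) and the 7 marked pluripotency genes (blue, with exact 95% counting intervals of the ratio). At the deposited scaling Utf1 lies lowest at -1.81, and Pou5f1 is the only marked member clearly above 0.

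H3K4me2 increased at least 2-fold from E17.5 to PN15 in 0 of the 8 genes, against 7.84% of all genes. It decreased at least 2-fold in Prdm14 and Tdgf1 (log2 changes of -2.23 and -1.50), against 11.7% of all genes. With the H3K4me2 libraries scaled to the same 99th percentile, 5 members passed that limit, Sall4, Pou5f1 and Utf1 at -1.25, -1.22 and -1.19 being the others, against 17.7% of all genes. Sall4, Pou5f1 and Utf1 had log2 changes of -0.82, -0.83 and -0.79, and only for Sall4 of these 3 did the interval of the ratio (0.341 to 0.895) leave out 1. Klf4 was the only member with an increase whose interval left out 1, and its log2 change of 0.54 became 0.10 with the H3K4me2 libraries scaled to the same 99th percentile, which moved the median of all genes by -0.43. At Nanog and Dppa4 both values were under background, and no change was read from them.

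Lists of related genes were read in the same way. Of 18 other regulators of pluripotent cells, 11 had H3K27me3 above background at all 4 stages (11.4% of all genes) and 5 at none (79%), and 15 had H3K4me2 at all 4 (65.3%). Gbx2, a homeobox factor, had the most, with H3K27me3 of 617, 799, 540 and 277, and Foxd3, a forkhead factor, had 469, 648, 464 and 208. H3K27me3 decreased at least 2-fold in 6 of the 18, against 16.1% of all genes and 43% of those above background at PN1. These 6 had it above background at all 4 stages. It increased at least 2-fold in 3, against 12.2% and 2.95%. Among these 3 was Tcl1, with 5, 6, 12 and 17, never above background. The median log2 change was -0.52, beside 0 for all genes and -0.85 for those above background at PN1. With the same 99th percentile the counts were 2 and 7. At that scaling 1.71% of all genes decreased 2-fold, and the median of all genes moved up by 1.07. Sox2, the partner of Pou5f1 and also a factor of retinal progenitors and glia, had its lowest value at E17.5 and its highest at PN15, with H3K27me3 of 26, 75, 112 and 182 beside H3K4me2 of 104, 56, 124 and 36. Tbx3, which is likewise used in the embryonic eye, had H3K27me3 of 54, 121, 197 and 209.

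Of 12 genes for signals of the early embryo, 9 had H3K27me3 at all 4 stages (11.4% of all genes) and 3 at none (79%). It decreased at least 2-fold in 6 of the 12 (16.1% of all genes). All 6 were among the 9 marked genes, beside 43% of all genes above background at PN1. With the H3K27me3 libraries scaled to the same 99th percentile, none of the 12 decreased 2-fold, against 1.71% of all genes. Fgf4, a growth factor of the inner cell mass, had the most, with 362, 434, 273 and 134. Nodal, the ligand that Tdgf1 helps to bind, had H3K27me3 of 296, 316, 261 and 110, and its antagonists Lefty1 and Lefty2 had 222, 269, 132 and 79 and 195, 204, 132 and 99. H3K4me2 at Nodal was 26, 13, 28 and 16, above background at all 4 stages, unlike Tdgf1.

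Of 15 genes of the early embryo and the germ line, 0 had H3K27me3 at all 4 stages (11.4% of all genes) and 13 had it at none (79% of all genes). For H3K4me2, 0 had it at all 4 stages (65.3% of all genes) and 10 at none (24.4% of all genes). Dppa3 (Stella), which lies 81158 bases from Nanog, came closest with H3K27me3 of 41, 31, 33 and 23, above background at E17.5 alone, and Tdrd1, a germ line Tudor protein, had 26, 40, 32 and 31, above it at PN1 alone. Over these 3 lists, 14 of 45 genes had H3K4me2 at no stage (24.4% of all genes), among them Zfp42 (Rex1), Dppa2 and Gdf3. Of those 14 genes, 13 also had H3K27me3 at no stage and 0 had it at all 4, beside 94% and 2.11% of all genes without H3K4me2.

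**Figure D5:**
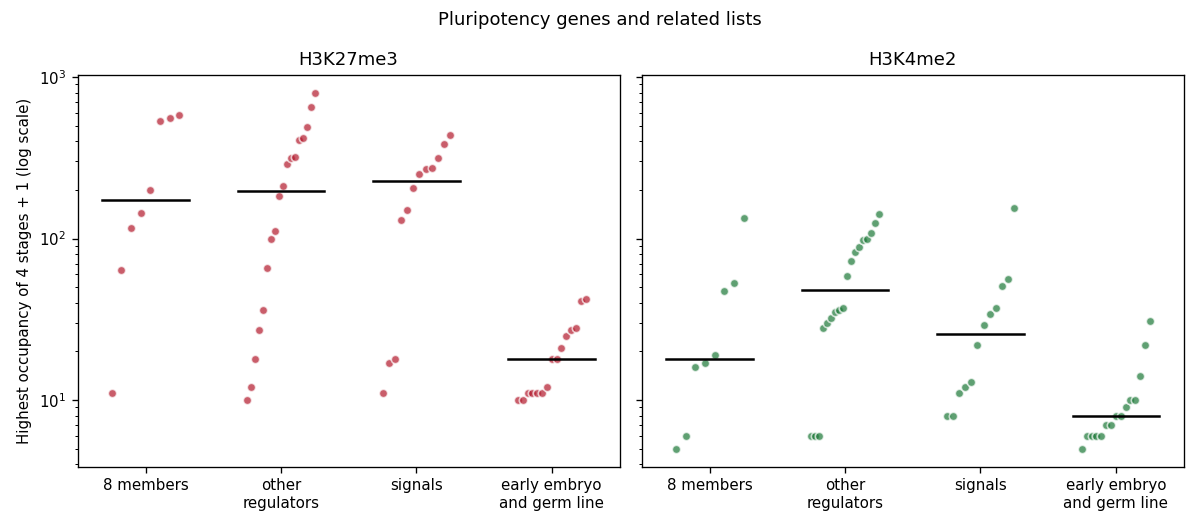
Highest occupancy of the 4 stages plus 1 (log scale) of H3K27me3 (left) and H3K4me2 (right) for the 8 pluripotency genes, 18 other regulators, 12 signals and 15 genes of the early embryo and germ line. Points are genes in rising order and lines are medians. The germ line list stays at or below 41 units of H3K27me3, where 7 of the 8 pluripotency genes reach 63 or more.

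Genes with the most similar values over the 8 libraries were found by the distance of log2(value + 1). For Sall4 they were Ovol2 and Wnt6 (distances 0.49 and 0.51), for Utf1 Ucn and Tnfaip2 (0.49 and 0.55), for Prdm14 Tbx20 and Tbr1 (0.74 and 0.76), for Tdgf1 Galnt6 and Alox5 (0.55 and 0.81) and for Klf4 Sh2b3 and Bcl6 (0.64 and 0.67). For Nanog they were Nkg7 (0.53) and Nanogpd (0.59), and for Dppa4 Naaladl1 and Odz3 (0.91 and 1.12). Sall4 had 45 genes within a distance of 1, Utf1 22, Nanog 13, Prdm14 and Tdgf1 5 each, Klf4 4, Dppa4 1 and Pou5f1 0.

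Neighbours of the marked genes differed in H3K27me3. Atp9a, nearest to Sall4 (25068 bases away), had H3K27me3 of 11, 20, 11 and 8, whereas Nfatc2, the next one (176836 bases away), had 262, 298, 168 and 70. Rad23b, nearest to Klf4 (182423 bases away), had 7, 6, 4 and 3. Near Utf1, 6430531B16Rik (34966 bases away) had 12, 20, 18 and 11. Near Tdgf1, Lrrc2 (5387 bases away) had 53, 48, 36 and 23, above background at E17.5 and PN1. Near Prdm14, Slco5a1 (135986 bases away) had 9, 13, 41 and 60.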

How the data were processed

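ChIP-Seq of H3K4me2 and H3K27me3 was done on mouse retina of 4 stages, and no mark or stage had more than 1 library (8 libraries). The authors mapped reads with Bowtie 0.12.4 to mm9, removed reads with several positions and added up midpoints of reads up to 2.5 kb from each RefSeq TSS. What they deposited is a score, the sum divided by the total of mapped reads and then rounded, and it was not tested as read counts; each value was taken as a read number for counting intervals alone. The rd1/rd1 H3K4me2 library and the anti-GFP control (2 of 10 samples) were not used here because the table has no column for them. The strain and antibody labels conflict in part with the methods, so the mark was taken from the sample titles. The header of the PN7 H3K27me3 column has an extra letter b.

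Where a gene had several entries, the 1 with the largest total over the 8 libraries stood for it. Changes are log2((b + 1)/(a + 1)) with a limit of 2-fold. Intervals are exact (Poisson, or Clopper-Pearson for ratios) at 95%. Coordinates, CpG and neighbours come from the GENCODE annotation of mm9, in which 95.9% of genes were matched. Genes named were the 8 members, the genes of each list with the largest values or past a limit, the 2 symbols nearest over the 8 libraries and the nearest neighbours on the chromosome; Sox2, Tbx3, Nodal, Lefty1, Lefty2, Klf2, Klf5, Gdf3 and Zfp42 were picked out of the lists after their values were seen. The members and lists were chosen with earlier results of these data known. Python 3.11.15, numpy 2.4.6, pandas 2.3.3 and scipy 1.17.1 were used.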

Additional observations from a re-analysis of the deposited data

How the results depend on the processing

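The number of genes with H3K27me3 at all 4 stages was 7 with the 95th percentile of the receptors as background, 6 with the lower end of the counting interval (without Nanog) and 5 with the 99th percentile of 144 defensin, keratin-associated and taste receptor entries, between 65.6 and 71.1. With that last background Nanog had H3K27me3 at no stage, so that 2 genes rather than 1 were without it, and Klf4 lost PN15. H3K4me2 at all 4 stages was found in 4, 2 and 2 genes under the same alternatives. H3K27me3 decreased from E17.5 to PN15 in 5 genes at a limit of 1.5-fold and in 1 (Utf1) at 3-fold. With libraries scaled to the same 99th percentile it decreased 2-fold in 0 of the 8 genes, against 1.71% of all genes. By its construction that scaling removes the loss shared by the strongest genes, and it turned the H3K27me3 change of Sall4 from E17.5 to PN15, -1.11, to 0.037. Applied to H3K4me2, it took the number of genes with a 2-fold decrease from 2 to 5. Scaling to the same median or a pseudocount of 5 moved none of the 8 H3K27me3 changes by more than counting error. With genes whose 8 values sum to at least 80, the share of genes with H3K27me3 at all stages was 14.9%, the share with a 2-fold decrease of H3K27me3 19.8% and that with a 2-fold increase of H3K4me2 5.06%. The counting interval and the scaling of libraries to the same 99th percentile were chosen after seeing the data. No paired analysis was possible because each mark and stage had 1 library, so no replicate could be left out either. Values under about 10 carry wide counting intervals, so the H3K4me2 of Nanog, Dppa4, Tdgf1 and Pou5f1 cannot show small changes.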
